A study of Mus musculus with 14 samples.

Results

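The genes described here are 10 factors and targets of the NF-kB pathway: the subunit genes Nfkb1, Nfkb2, Rel and Relb, the inhibitor genes Nfkbia and Tnfaip3, the ligand genes Tnf and Ltb, and the target genes Tnfaip2 and Icam1. They were taken by name from a table of 52636 Ensembl genes, and all 10 were found in it and passed the filter on low counts. The RNA came from leukemic progenitors of mice transplanted with I1DN cells, the labels' name for a leukemia that the study's title describes as carrying mutant IDH1. AG120 (AG-120, ivosidenib) inhibits the mutant IDH1 enzyme. The 14 libraries, 1 per mouse, came from relapsed disease in mice given AG120 for 28 days (n = 4), from mice given AG120 for 14 days (n = 2) or 5 days (n = 3), and from mice given vehicle for 14 days (n = 2) or 5 days (n = 3). All 5 groups carried I1DN cells, and all were sorted for surface cKit and against CD11b. The strain, age and sex of the mice and the source of the I1DN cells were not stated in the labels read here.

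NF-kB proteins are dimers of REL-family subunits that are held inactive by IkB proteins in resting cells. In the canonical arm, signals from TNF, interleukin-1 or Toll-like receptors lead to the destruction of IkBα, and dimers such as those of p50 with RELA or c-REL enter the nucleus. In the other arm, lymphotoxin and related ligands stabilize the kinase NIK, which drives the processing of NF-kB2 and the release of RELB. Several NF-kB targets are themselves inhibitors, among them IkBα and the ubiquitin-editing enzyme A20, so that their mRNA is often read as a trace of NF-kB activity in blood cells.

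Total counts were 4995738 to 8691708 per library. Ribosomal RNA gene models took 50.9% to 74.8%, which left 1259982 to 3358874 counts for the other genes. The shallowest library was AG120 day 14 replicate 1. Levels are given in CPM, counts scaled to a common library size with TMM factors (trimmed mean of M values, which adjust for composition). Each read comes from the 3′ end of a transcript, so that a level does not scale with transcript length. Tests are edgeR's quasi-likelihood test on raw counts over 11994 genes, an adjusted p is a Benjamini-Hochberg value over all of them, and "passed" means an adjusted p under 0.05. The cells matched their sort in part. Kit, the gene for cKit, was detected in every library, at 18.9 to 52.0 CPM in relapse, 11.6 CPM in both AG120 day 14 libraries, and 23.6 to 37.8 CPM over AG120 day 5 and vehicle. Itgam, the gene for CD11b, was not at 0 in any library and ranged over 13.9 to 53.5 CPM in relapse, 2.56 to 8.01 CPM in AG120 and 10.6 to 18.0 CPM in vehicle. Cd34, a progenitor surface marker, had 135 to 186 CPM in relapse, 4.48 to 11.4 CPM in AG120 and 126 to 147 CPM in vehicle. Idh1, the gene of the enzyme that the drug acts on in its mutant form, was read 32 and 55 times in AG120 day 14, against 298 and 264 times in vehicle day 14 (log2 fold change −1.95 ± 0.41, SE, adjusted p = 0.00255), with mutant and normal transcripts counted together. Fewer cells of a type and less RNA per cell cannot be told apart in such bulk samples.

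Of the 10 genes, 8 have a promoter window in the RefSeq table (GRCm38.p6), which runs from 250 bases before the annotated start to 50 after it. Nfkb1 and Relb have no entry there. The windows were searched on both strands for the κB consensus, the 10-base motif that NF-kB dimers bind, and 6 of the 8 genes held it, against 9.55% of the 27025 genes in the table. The windows below are those of Rel and Ltb, which fell at both times, of Nfkbia, which passed at day 14, and of Tnfaip2, the riser. They are written 5′ to 3′ in the direction of the gene, and the capitals mark the matches.
Rel, chr11:23770920-23771219, minus strand: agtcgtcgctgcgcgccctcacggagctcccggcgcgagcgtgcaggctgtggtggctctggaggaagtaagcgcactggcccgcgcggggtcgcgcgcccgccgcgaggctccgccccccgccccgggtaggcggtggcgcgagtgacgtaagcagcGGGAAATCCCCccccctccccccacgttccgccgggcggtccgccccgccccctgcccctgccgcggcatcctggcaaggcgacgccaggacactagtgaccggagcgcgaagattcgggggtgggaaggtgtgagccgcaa
Nfkbia, chr12:55492598-55492897, minus strand: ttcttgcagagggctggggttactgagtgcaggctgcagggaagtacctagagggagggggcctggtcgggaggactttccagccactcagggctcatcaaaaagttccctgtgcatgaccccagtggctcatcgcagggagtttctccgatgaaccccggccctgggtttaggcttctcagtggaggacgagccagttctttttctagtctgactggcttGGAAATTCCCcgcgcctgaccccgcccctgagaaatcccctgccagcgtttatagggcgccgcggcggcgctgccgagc
Ltb, chr17:35194257-35194556, plus strand: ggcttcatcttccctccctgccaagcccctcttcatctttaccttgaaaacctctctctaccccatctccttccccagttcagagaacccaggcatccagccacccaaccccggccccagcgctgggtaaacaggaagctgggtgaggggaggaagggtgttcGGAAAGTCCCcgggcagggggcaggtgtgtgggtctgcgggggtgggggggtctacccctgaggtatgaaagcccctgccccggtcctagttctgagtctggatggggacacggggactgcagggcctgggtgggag
Tnfaip2, chr12:111442411-111442710, plus strand: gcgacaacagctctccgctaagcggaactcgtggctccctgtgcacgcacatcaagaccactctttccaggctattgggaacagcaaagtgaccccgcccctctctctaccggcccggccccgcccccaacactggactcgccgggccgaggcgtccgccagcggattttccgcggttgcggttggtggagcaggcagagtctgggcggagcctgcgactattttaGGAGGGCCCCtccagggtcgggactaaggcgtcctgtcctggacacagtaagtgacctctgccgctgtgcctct

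The stretch in Rel spans 11 bases, from −92 to −82, and matches on both strands. The match in Nfkbia lies at −29 to −20, the match in Ltb at −87 to −78 and the match in Tnfaip2 at −24 to −15, each on the strand opposite to the gene's. These positions are from the RefSeq start. The GENCODE annotation starts Tnfaip2 further upstream, at 111442469 on chromosome 12, so that there its match lies inside the gene. The first windows of Nfkb2 and Tnfaip3 held 2 stretches each. No match was found in the windows of Tnf and Icam1, which says only that these letters are not in those 300 bases.

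**Figure D1:**
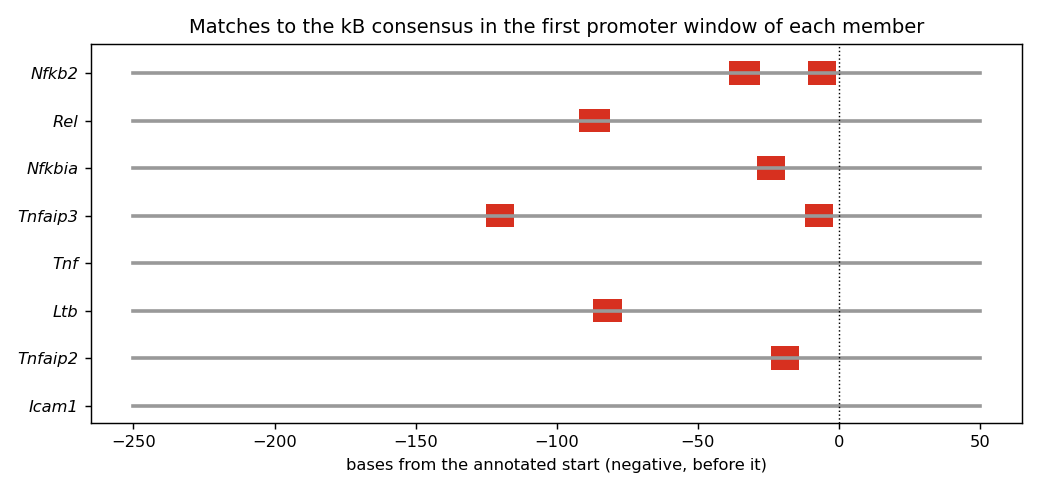
Matches to the κB consensus on either strand in the first promoter window of the 8 members with an entry, against distance in bases from the annotated start. Red boxes are the matched stretches, all before the RefSeq start. Tnf and Icam1 have none.

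The estimates of 9 of the 10 genes were below 0 in AG120 against vehicle at both times, and that of Tnfaip2 was above 0. Against vehicle of the same day, 8 members fell, 1 rose and 1 did not pass at day 14, when 34.7% of all tested genes were called (16.8% higher and 17.9% lower). At day 5, 4 fell, 1 rose and 5 did not pass, with 39.4% of all tested genes called (20.1% higher and 19.3% lower). The median log2 fold change over the 10 members was −2.98 at day 14 and −0.68 at day 5, beside −0.01 and −0.00 over all tested genes. Rel, Tnf, Ltb and Icam1 passed as lower at both times. Tnfaip2 passed as higher at both times. Nfkb1, Relb, Nfkbia and Tnfaip3 passed as lower at day 14 and did not pass at day 5, and Nfkb2 passed at neither. Fitted on the compared groups alone, Relb (adjusted p = 0.00149) and Nfkb1 (0.0404) passed at day 5 and Nfkb2 (0.0414) at day 14. Such fits called 6186 genes at day 5 (main fit 4730) and 4888 at day 14 (main fit 4159). Tnfaip3 passed at day 5 without vehicle day 5 replicate 2 (adjusted p = 0.048). The members were chosen with earlier results of these data known, so that these counts describe them and do not set them apart from other genes.

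**Figure D2:**
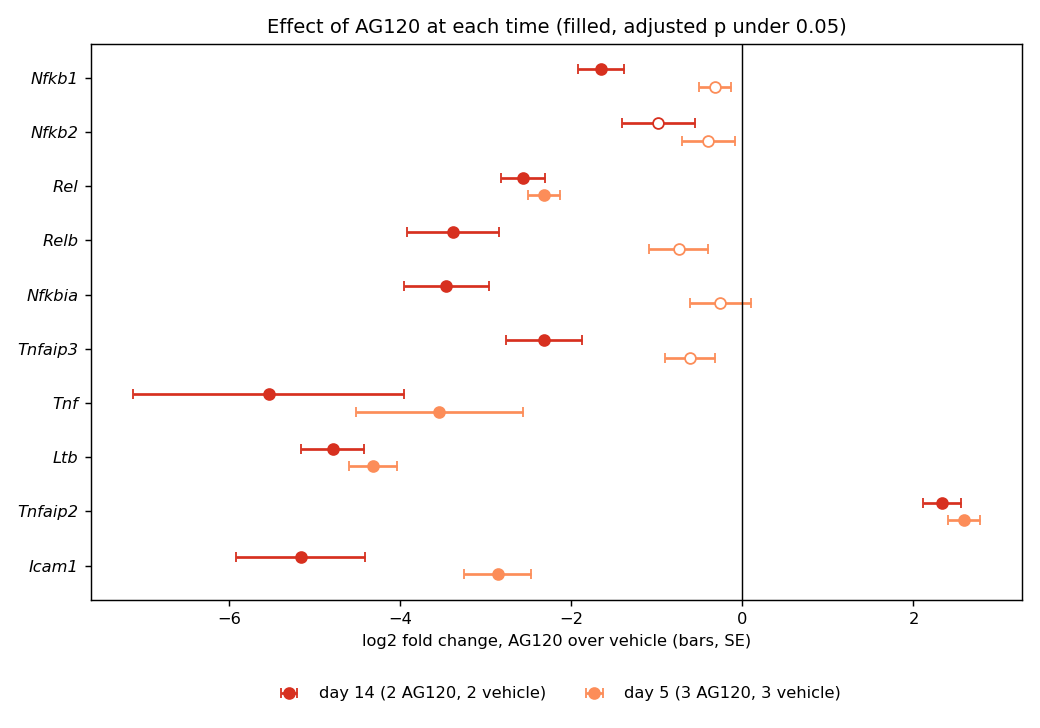
Log2 fold change of AG120 over vehicle for each member, with its standard error, at day 14 (upper point of each pair) and at day 5 (lower point). Filled points have an adjusted p under 0.05. The points of Rel, Ltb and Tnfaip2 lie close together at both times, while those of Relb, Nfkbia and Tnfaip3 lie further below 0 at day 14.

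Markers of cell types moved with the same libraries. In AG120, 10 of 10 erythroid markers were higher at day 14 and 9 of 10 at day 5, beside 16.8% and 20.1% of all tested genes. Of the myeloid progenitor markers, 4 of 7 were lower at day 14 and 3 of 7 at day 5, beside 17.9% and 19.3%. Of the tested monocyte and macrophage markers, 2 of 5 were lower at day 14 and 3 of 5 at day 5. Of the neutrophil markers, 0 of 7 were called at day 14 and 2 of 7 were lower at day 5. The remaining lists had at most 4 tested markers each. The 10 erythroid markers, all detected in every group, summed to 22.3 to 80.8 CPM in relapse, against 815 to 871 CPM at day 14 and 440 to 469 CPM at day 5 of AG120. In vehicle the erythroid sum was 49.7 to 51.6 CPM at day 14 and 38.6 to 39.8 CPM at day 5. The 7 myeloid progenitor markers, all detected, summed to 708 to 2501 CPM in relapse, 179 to 182 CPM at day 14 and 318 to 443 CPM at day 5 of AG120, and 857 to 1537 CPM over vehicle. The 8 monocyte and macrophage markers were low everywhere, with sums of 23.7 to 47.8 CPM in relapse, 11.6 to 21.8 CPM over AG120 and 26.2 to 36.5 CPM over vehicle. Among them Fcgr1 was at 0 in all AG120 libraries and Adgre1 in those of day 14. The 7 neutrophil markers, all detected, summed to 239 to 1245 CPM in relapse, 1262 to 1656 CPM at day 14 and 116 to 202 CPM at day 5 of AG120, and 546 to 1137 CPM over vehicle. B cell markers summed to at most 3.02 CPM, T and NK cell markers to at most 2.06 CPM, endothelial markers to at most 3.92 CPM and dendritic cell markers to at most 18.5 CPM in any library. Pax5 of the B cell list and Cdh5 of the endothelial list were at 0 in all AG120 libraries. The part of these cell types in the members' changes was not tested.

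Among the subunits, Rel, which encodes c-REL, the subunit most restricted to blood cells, fell at both times. Rel had 4.48 and 2.40 CPM in AG120 day 14, against 20.5 and 18.5 CPM in vehicle day 14. It had 4.42, 4.37 and 4.95 CPM in AG120 day 5, against 22.9, 25.0 and 20.8 CPM in vehicle day 5. No AG120 library reached the lowest vehicle library at either time. The log2 fold change was −2.56 ± 0.26 at day 14 (SE, adjusted p = 1.28e-06) and −2.32 ± 0.18 at day 5 (SE, adjusted p = 7.38e-08). The day 14 effect minus the day 5 effect was −0.25, with a 95% interval of −0.95 to 0.46 (adjusted p = 0.841).

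Relb encodes RELB, the partner of processed NF-kB2 in the lymphotoxin arm. Relb was read 6 and 8 times in AG120 day 14, against 136 and 113 times in vehicle day 14. At day 5 it was read 42, 25 and 42 times in AG120, against 77, 95 and 70 times in vehicle. Its level averaged 1.70 ± 0.13 CPM in AG120 day 14 and 17.8 ± 3.05 CPM in vehicle day 14 (SD, n = 2 each), and 5.77 ± 1.37 CPM in AG120 day 5 and 9.72 ± 1.77 CPM in vehicle day 5 (SD, n = 3 each). The groups did not overlap at either time, but the gap was wide at day 14 and narrow at day 5. Relb fell by 3.39 ± 0.54 log2 units at day 14 (SE, adjusted p = 0.000216) and was at −0.74 ± 0.34 at day 5 (SE, adjusted p = 0.102), where it passed with no filter on low counts (0.00508).

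Nfkb1 encodes p105, the precursor of p50. It had 7.76 and 6.81 CPM in AG120 day 14, against 26.8 and 18.8 CPM in vehicle day 14. In AG120 day 5 it had 15.2, 21.2 and 15.6 CPM, against 25.9, 20.2 and 19.0 CPM in vehicle day 5, where the groups overlapped. Nfkb1 fell by 1.65 ± 0.27 log2 units at day 14 (SE, adjusted p = 0.000172) and was at −0.32 ± 0.19 at day 5 (SE, adjusted p = 0.19). Nfkb2, which encodes p100, the precursor of p52, was low in all groups. It had 2.69 and 2.20 CPM in AG120 day 14, against 5.57 and 4.01 CPM in vehicle day 14, and 3.50, 2.86 and 3.99 CPM in AG120 day 5, against 4.27, 4.09 and 5.28 CPM in vehicle day 5. The groups did not overlap but lay close together. The log2 fold change of Nfkb2 was −0.98 at day 14, with a 95% interval of −1.88 to −0.08 (adjusted p = 0.0859), and −0.40 at day 5, with an interval of −1.04 to 0.25 (adjusted p = 0.324). Its last bases overlap Psd on the other strand, and whether the counting used strand is not given. Psd itself had 3.20 to 7.76 CPM in AG120 day 14 and 10.8 to 11.2 in vehicle day 14, and it fell by 1.08 ± 0.40 log2 units (SE, adjusted p = 0.0458).

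Rela, the gene of the fifth subunit and not a member, did not pass at either time. It averaged 33.1 ± 2.46 CPM in AG120 day 14 and 36.0 ± 1.34 CPM in vehicle day 14 (SD, n = 2 each), and 33.0 ± 3.94 CPM in AG120 day 5 and 37.8 ± 1.16 CPM in vehicle day 5 (SD, n = 3 each). Its log2 fold change was −0.12 ± 0.17 at day 14 (SE, adjusted p = 0.633) and −0.20 ± 0.14 at day 5 (SE, adjusted p = 0.266).

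Nfkbia, which encodes IkBα, had the highest level of the 10 genes in vehicle. It had 22.1 and 23.4 CPM in AG120 day 14, against 289 and 214 CPM in vehicle day 14. At day 5 it had 160, 94.4 and 111 CPM in AG120, against 156, 151 and 130 CPM in vehicle, and the groups overlapped. Nfkbia fell at day 14, by 3.46 ± 0.50 log2 units (SE, adjusted p = 0.000296), and was at −0.26 at day 5, with a 95% interval of −1.04 to 0.52 (adjusted p = 0.603).

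Tnfaip3 encodes A20, which removes and edits ubiquitin chains on signalling proteins upstream of NF-kB. Its counts were small, at 3 and 4 in AG120 day 14 and 29 and 31 in vehicle day 14. That is 0.895 and 0.801 CPM in AG120 day 14, against 4.25 and 4.28 CPM in vehicle day 14. At day 5 it had 1.83, 2.02 and 2.24 CPM in AG120, against 4.13, 2.21 and 3.08 CPM in vehicle, where the groups overlapped. Tnfaip3 fell by 2.32 ± 0.44 log2 units at day 14 (SE, adjusted p = 0.000651) and was at −0.61 ± 0.29 at day 5 (SE, adjusted p = 0.103).

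**Figure D3:**
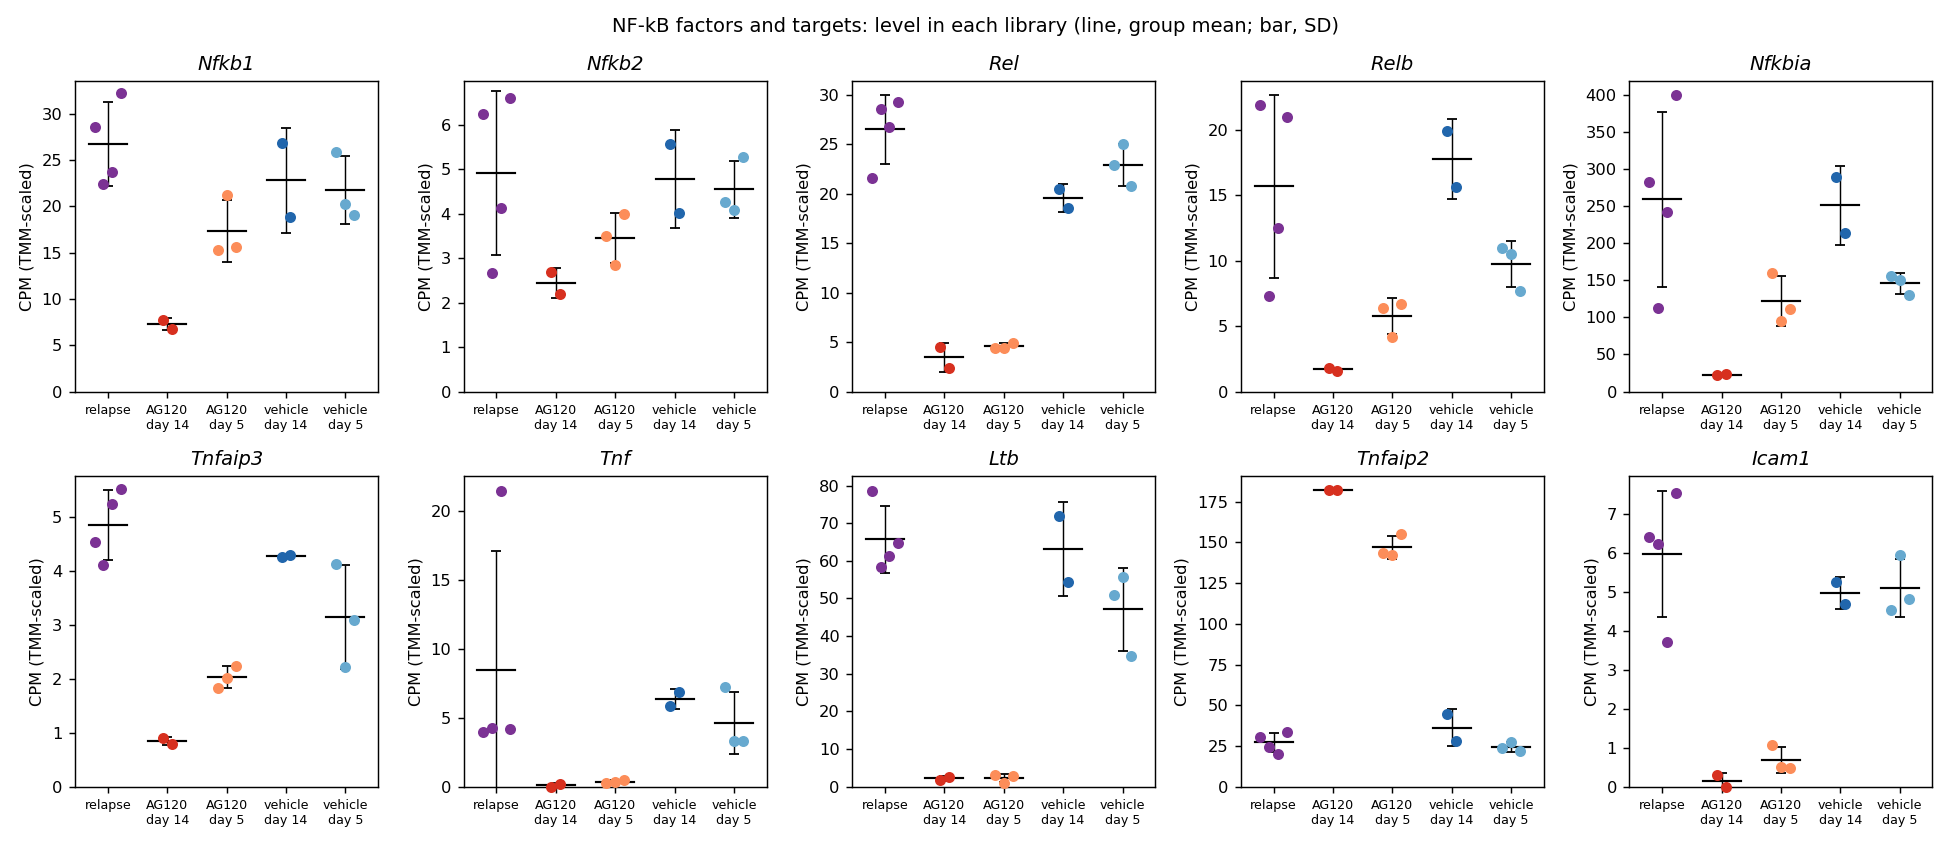
Level of each member in CPM (linear axis from 0) in every library, by group: relapse (n = 4), AG120 day 14 (n = 2), AG120 day 5 (n = 3), vehicle day 14 (n = 2) and vehicle day 5 (n = 3). Points are libraries, lines are group means and bars are SDs, cut at 0 for Tnf and Icam1. Rel, Tnf, Ltb and Icam1 are low in all AG120 libraries, Nfkbia and Relb are lowest at AG120 day 14, and Tnfaip2 is high in AG120 alone.

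Both ligand genes fell at both times. Ltb, which encodes lymphotoxin beta, the membrane anchor of the lymphotoxin trimer, had 1.79 and 2.60 CPM in AG120 day 14, against 71.9 and 54.3 CPM in vehicle day 14. It had 3.05, 1.01 and 2.87 CPM in AG120 day 5, against 51.0, 55.6 and 34.8 CPM in vehicle day 5. Every AG120 library lay below every vehicle library by more than 10-fold. Ltb fell by 4.79 ± 0.37 log2 units at day 14 (SE, adjusted p = 1.27e-07) and by 4.32 ± 0.28 at day 5 (SE, adjusted p = 1.67e-08), and the effects differed by −0.47, with a 95% interval of −1.59 to 0.66.

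Tnf, the gene of the cytokine itself, was read 0 and 1 times in the AG120 day 14 libraries, against 40 and 50 times in vehicle day 14. The day 5 counts were 2, 2 and 3 in AG120, against 51, 30 and 30 in vehicle. Each vehicle library held at least 10 times the reads of any AG120 library. The pooled counts at day 14 put Tnf 53.4-fold lower in AG120, with a 95% counting interval of 9.35 to 2133. Those at day 5 put it 11.8-fold lower, with an interval of 5.56 to 30.1. Both intervals cover counting error only. Tnf passed at day 14 (adjusted p = 0.0176) and at day 5 (adjusted p = 0.0128). At day 14 it no longer passed when AG120 replicate 1 (adjusted p = 0.0905), AG120 replicate 2 (0.101) or vehicle replicate 2 (0.0506) was left out, and both calls were lost with limma-voom (0.15 at day 14 and 0.0851 at day 5) and with no filter on low counts (0.0671 and 0.0529). Tnf and Ltb are neighbours on chromosome 17 (Ltb from 35194439 to 35196320 on the plus strand, Tnf from 35199381 to 35202007 on the minus strand, GRCm38). Lta, the lymphotoxin alpha gene of the same cluster, did not pass the filter on low counts.

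Of the targets, Icam1 and Tnfaip2 moved in opposite directions. Icam1, the adhesion molecule that binds leukocyte integrins, was read 1 and 0 times in AG120 day 14, against 36 and 34 times in vehicle day 14. At day 5 it was read 7, 3 and 3 times in AG120, against 32, 54 and 44 times in vehicle. The groups were far apart at both times. The pooled counts at day 14 put Icam1 41.5-fold lower in AG120, with a 95% counting interval of 7.22 to 1664. Icam1 passed at day 14 (adjusted p = 5.62e-05) and fell by 2.86 ± 0.39 log2 units at day 5 (SE, adjusted p = 3.02e-05). The end of Icam1 overlaps Gm47079, a gene on the other strand, from 21028307 to 21028817 on chromosome 9. Gm47079 moved the other way, at 31.3 and 39.0 CPM in AG120 day 14 against 10.1 and 11.1 CPM in vehicle day 14. Without known strand, reads in that overlap cannot be assigned to either gene.

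Tnfaip2 encodes a protein of membrane tubules and exocytosis that was first found as a TNF-induced gene. It had 182 and 183 CPM in AG120 day 14, against 44.4 and 28.2 CPM in vehicle day 14. In the day 5 libraries it had 144, 142 and 155 CPM in AG120, against 23.5, 27.7 and 21.8 CPM in vehicle. Each AG120 library lay at more than 3 times the highest vehicle library. Tnfaip2 rose by 2.33 ± 0.23 log2 units at day 14 (SE, adjusted p = 7.42e-07) and by 2.59 ± 0.19 at day 5 (SE, adjusted p = 2.65e-08), and the effects differed by −0.26, with a 95% interval of −0.86 to 0.33. In AG120 day 14 it was the most abundant of the 10.

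The comparison of day 14 with day 5 asked whether the effect of AG120 itself differed between the times. All 10 differences were negative, and 1 of 10 passed, that of Nfkbia, beside 0.934% of all tested genes (0.208% higher and 0.725% lower). The median difference over all tested genes was itself below 0, at −0.06. In 1 of 18 alternatives the difference of Rel was above 0, at 0.19, and in 1 of 18 that of Tnfaip2, at 0.09. The Nfkbia difference was −3.20 ± 0.60 log2 units (SE, 95% interval −4.53 to −1.88, adjusted p = 0.0343). It lost its call without any of the 10 libraries in this comparison (adjusted p = 0.0507 to 0.207), with no filter on low counts (0.0677) and with limma-voom (0.113), while its value stayed at −3.41 to −2.96 over all alternatives. Nfkb1 was at −1.33 ± 0.33 (adjusted p = 0.0712), Relb at −2.65 ± 0.66 (adjusted p = 0.0835) and Tnfaip3 at −1.71 ± 0.54 (adjusted p = 0.179). DESeq2 called Nfkb1, Relb and Nfkbia in this difference (adjusted p = 0.0443 for Nfkb1 and 0.0111 for Relb). Icam1 was at −2.30, with a 95% interval of −4.58 to −0.03 (adjusted p = 0.4).

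Within AG120, day 14 minus day 5, the log2 level of Nfkbia fell by 2.42 ± 0.47 (SE, adjusted p = 0.0149) and that of Nfkb1 by 1.26 ± 0.26 (SE, adjusted p = 0.00966), 2 of 10 members beside 4.1% of all tested genes (1.75% higher and 2.35% lower). Leaving out either AG120 day 14 library ended both calls, with adjusted p = 0.142 for Nfkbia and 0.0742 for Nfkb1 without replicate 1, and 0.121 and 0.126 without replicate 2. Relb was at −1.77 ± 0.57 (adjusted p = 0.098) and Tnfaip3 at −1.25 ± 0.46 (adjusted p = 0.163). Within vehicle, day 14 minus day 5, no gene of the 11994 passed in edgeR (0% in either direction), DESeq2 or limma-voom, with 574 genes and 2 members (Relb and Tnfaip2) at an unadjusted p under 0.05 in edgeR. Nfkbia averaged 251 ± 53.2 CPM in vehicle day 14 (SD, n = 2) and 146 ± 13.6 CPM in vehicle day 5 (SD, n = 3), a log2 difference of 0.79 ± 0.39 (SE, adjusted p = 1). Relb averaged 17.8 ± 3.05 CPM in vehicle day 14 (SD, n = 2) and 9.72 ± 1.77 CPM in vehicle day 5 (SD, n = 3), a difference of 0.87 ± 0.34 (SE, adjusted p = 1). With only the vehicle groups in the fit, 236 genes passed, among them Relb and Nfkbia as higher at day 14 (adjusted p = 0.00212 and 0.00264).

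At relapse no member passed against vehicle. Against the mean of both vehicle groups, 0 of 10 passed in edgeR, DESeq2 or limma-voom, beside 0.183% of all tested genes in edgeR (0.1% higher and 0.0834% lower), and 1 member (Rel, at 0.33 ± 0.13) had an unadjusted p under 0.05. Nfkbia had 282, 113, 242 and 400 CPM in relapse, against 130 to 289 CPM over the 5 vehicle libraries. Ltb had 78.6, 58.4, 61.4 and 64.6 CPM in relapse, against 34.8 to 71.9 CPM in vehicle. Tnfaip2 had 30.8, 24.4, 20.2 and 33.4 CPM in relapse, against 21.8 to 44.4 CPM in vehicle. In each case the groups overlapped. The 95% interval of the log2 difference was −0.20 to 1.08 for Nfkbia, −0.09 to 0.63 for Ltb and −0.45 to 0.20 for Tnfaip2, so that these data do not set their levels equal.

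Tnf was uneven at relapse, at 3.97, 4.28, 21.5 and 4.20 CPM, against 3.30 to 7.26 CPM over the 5 vehicle libraries. Replicate 3 alone was high, and the other 3 lay within the vehicle range. The log2 difference from vehicle was 0.67, with a 95% interval of −0.42 to 1.77, and −0.38 without relapse replicate 3. Relb and Nfkbia also varied, with Relb at 21.9, 7.31, 12.5 and 21.0 CPM, and both were lowest in replicate 2.

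Rel had 21.5, 28.5, 26.7 and 29.2 CPM in relapse, against 18.5 to 25.0 CPM in vehicle. Nfkb1 ranged over 22.5 to 32.2 CPM in relapse and 18.8 to 26.8 CPM in vehicle, and Nfkb2 over 2.67 to 6.59 CPM in relapse and 4.01 to 5.57 CPM in vehicle. Tnfaip3 ranged over 4.10 to 5.51 CPM in relapse and 2.21 to 4.28 CPM in vehicle, and Icam1 over 3.71 to 7.55 CPM in relapse and 4.56 to 5.97 CPM in vehicle. All 5 of these genes overlapped between the groups.

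Against the mean of both AG120 groups, all 10 members passed at relapse, 9 higher and Tnfaip2 lower, where 54% of all tested genes were called (27.9% higher and 26.1% lower). These comparisons share their AG120 libraries with those above. Ltb was higher by 4.83 ± 0.24 log2 units (SE, adjusted p = 2.02e-10) and Rel by 2.77 ± 0.16 (SE, adjusted p = 5.99e-10), and Tnfaip2 fell by 2.59 ± 0.16 (SE, adjusted p = 1.02e-09). Nfkb2 was higher by 0.77 ± 0.27 (SE, adjusted p = 0.0255). This call was lost without relapse replicate 1 (adjusted p = 0.0648) or 4 (0.103), without AG120 day 14 replicate 2 (0.105), without AG120 day 5 replicate 2 (0.0508) and with limma-voom (0.0688), among other alternatives.

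The rest of the pathway was read from lists of subunits, inhibitors, kinases and adaptors, ligands and receptors, and targets. Apart from the members, 75 of their genes were tested. At day 14, 35 of them fell, 3 rose and 37 did not pass. That is 50.7% called, beside 34.7% of all tested genes (16.8% higher and 17.9% lower). At day 5, 29 fell, 2 rose and 44 did not pass. That is 41.3% called, beside 39.4% of all tested genes (20.1% higher and 19.3% lower). Their log2 fold changes had medians of −0.90 at day 14 and −0.49 at day 5, beside the medians near 0 over all tested genes given above. Traf1, 8 ligands and receptors and 10 targets did not pass the filter on low counts. In the difference between the times, 2 of 75 (2.67%) passed and both were negative, beside 0.934% of all tested genes (0.208% higher and 0.725% lower).

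Of 10 other inhibitors, 4 fell and 6 did not pass at day 14, and 5 fell, 1 rose and 4 did not pass at day 5. That is 40% called at day 14 and 60% at day 5. Over all tested genes it was 34.7% (16.8% higher and 17.9% lower) and 39.4% (20.1% higher and 19.3% lower). Bcl3, an IkB-like protein that joins p50 and p52 in the nucleus, averaged 1.24 ± 1.19 CPM in AG120 day 14 and 19.2 ± 0.01 CPM in vehicle day 14 (SD, n = 2 each). It fell by 4.11 ± 0.51 log2 units at day 14 (SE, adjusted p = 1.33e-05) and by 2.63 ± 0.38 at day 5 (SE, adjusted p = 5.46e-05). Nfkbie, which encodes IkBε, fell by 3.41 ± 0.58 at day 14 and by 1.18 ± 0.36 at day 5 (SE). Tnip1, a partner of A20, fell by 1.52 ± 0.21 at day 14 and by 1.26 ± 0.16 at day 5 (SE). Otulin, which cuts linear ubiquitin chains, rose by 0.67 ± 0.16 at day 5 (SE).

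Of 33 kinases and adaptors, 11 fell, 1 rose and 21 did not pass at day 14, and 12 fell and 21 did not pass at day 5. The share called in either direction, 36.4% at each time, was near that of all tested genes. By direction, 11 of 33 were lower at day 14 and 12 of 33 at day 5, beside 17.9% and 19.3% of all tested genes. The higher calls were 1 of 33 and 0 of 33, beside 16.8% and 20.1%. Map3k14, which encodes NIK, fell by 2.51 ± 0.39 log2 units at day 14 (SE, adjusted p = 0.0001) and by 3.15 ± 0.31 at day 5 (SE, adjusted p = 6.76e-07). Map3k8, which encodes the kinase TPL2, was read 0 times in AG120 day 14 and 21 times in vehicle day 14. That is 4.15-fold lower against a limit of 3 counts over the AG120 group, with a 95% counting interval from 3.09 upward. Card9, an adaptor of myeloid cells, was read 2 times in AG120 day 14 and 45 times in vehicle day 14, 13.4-fold lower with a 95% counting interval of 3.49 to 114. Irak3, an inhibitory relative of the IRAK kinases, fell by 1.31 ± 0.19 at day 5 (SE). Tab3, a subunit of the TAK1 kinase complex, rose by 1.49 ± 0.29 at day 14 (SE, adjusted p = 0.000764).

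Of 11 other ligands and receptors, 6 fell, 1 rose and 4 did not pass at day 14, and 6 fell and 5 did not pass at day 5. The share called was 63.6% at day 14 and 54.5% at day 5. Over all tested genes it was 34.7% (16.8% higher and 17.9% lower) and 39.4% (20.1% higher and 19.3% lower). Il1r1, the signalling receptor of interleukin-1, averaged 0.499 ± 0.139 CPM in AG120 day 14 and 10.4 ± 2.04 CPM in vehicle day 14 (SD, n = 2 each). It fell by 4.39 ± 0.75 log2 units at day 14 and by 3.08 ± 0.50 at day 5 (SE). Tnfrsf1a, the main TNF receptor, fell by 2.35 ± 0.28 at day 14 and by 2.11 ± 0.20 at day 5 (SE). Tnfsf14, which encodes the ligand LIGHT, was read 2 times in AG120 day 14 and 62 times in vehicle day 14, 18.4-fold lower with a 95% counting interval of 4.88 to 155. It fell by 3.04 ± 0.43 at day 5 (SE). Tlr2, a receptor of bacterial lipoproteins, was read 2 times in AG120 day 5 and 21 times in vehicle day 5, 7.83-fold lower with an interval of 1.92 to 68.9. Ltbr, the lymphotoxin beta receptor, fell by 2.25 ± 0.21 at day 14 and by 1.11 ± 0.16 at day 5 (SE), and the difference between the times passed, at −1.14 ± 0.26 (SE, adjusted p = 0.0497). The riser was Tnfrsf14, a receptor of LIGHT, with 2.40 to 3.58 CPM in AG120 day 14 and 0 to 0.415 CPM in vehicle day 14 (adjusted p = 0.00293).

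Of 20 other targets, 14 fell, 1 rose and 5 did not pass at day 14, and 6 fell, 1 rose and 13 did not pass at day 5. The share called was 75% at day 14 and 35% at day 5. Over all tested genes it was 34.7% (16.8% higher and 17.9% lower) and 39.4% (20.1% higher and 19.3% lower). The chemokine gene Ccl4 was read 0 times in AG120 day 14 and 53 times in vehicle day 14. That is 10.5-fold lower against a limit of 3 counts over the AG120 group, with a 95% counting interval from 8.23 upward. Ccl4 was the target whose effect differed between the times (adjusted p = 0.0305). Ccl4 was low in both day 5 groups, at 0.305 to 1.28 CPM in AG120 and 0.285 to 0.884 CPM in vehicle. Ccl5 was read 0 times in AG120 day 14 and 26 times in vehicle day 14. That is 5.14-fold lower against the same limit, with an interval from 3.89 upward. Cxcl2 was read 1 time and 34 times in the same groups, 20.2-fold lower with a 95% counting interval of 3.39 to 820. Bcl2l1, which encodes the survival protein BCL-XL, fell by 1.88 ± 0.21 log2 units at day 5 (SE), and Irf1, an interferon regulatory factor, by 1.31 ± 0.23 (SE). The risers were Vcam1, an adhesion molecule, by 2.53 ± 0.80 at day 14 (SE, adjusted p = 0.0255) and Sod2, the mitochondrial superoxide dismutase, by 0.95 ± 0.21 at day 5 (SE, adjusted p = 0.00231). The 2 AG120 day 14 libraries differed in Vcam1, at 3.88 and 18.6 CPM.

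**Figure D4:**
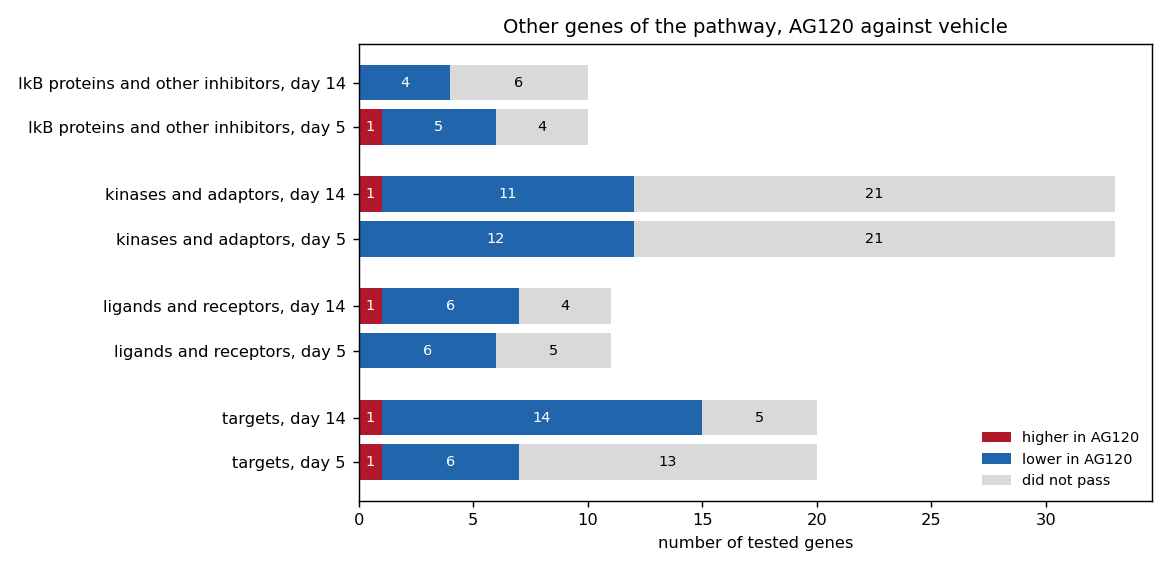
Number of other pathway genes that were higher in AG120, lower in AG120 or did not pass, for day 14 (upper bar of each pair) and day 5 (lower bar), by list and without the 10 members. Among targets, 14 of 20 were lower at day 14 and 6 of 20 at day 5, while kinases and adaptors had 11 and 12 of 33. Over all tested genes, 17.9% were lower at day 14 and 19.3% at day 5.

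The tested genes whose log2 CPM profiles over the 14 libraries lay nearest to a member were taken by the root mean square difference after centring each gene. The gene nearest to Relb was Nfkbia at 0.307 log2 units, nearly tied with Diaph2 at 0.309 and Ggh at 0.312. The gene nearest to Nfkbia was Relb at 0.307, followed by Il2rg at 0.360. Fli1, an ETS factor, lay nearest to Rel at 0.19, followed by Ptprc, which encodes CD45, at 0.22. Gcnt2 was among the 3 nearest to Ltb, at 0.40. The nearest to Tnfaip2 was Fam241a at 0.27, then Plvap and Mthfd1 at 0.28. These distances are descriptions, and all 14 libraries share the split between AG120 and the other groups.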

How the data were processed

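QuantSeq 3′ mRNA libraries were made from sorted progenitors of 14 mice, per the labels' protocols. Raw counts per Ensembl gene are as the authors deposited them. Per the submitters' processing notes, the tools included HISAT2 2.1.0 and featureCounts (Subread 1.6.3), with build mm10. Use of strand and of multi-mapping reads in the counting was not given. Symbols and positions come from GENCODE M21 (GRCm38), matched by identifier.

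Counts were filtered with filterByExpr (minimum count 10), scaled by TMM and fitted with edgeR 4.0.16 in R 4.3.3 (quasi-likelihood, robust, 1 coefficient per group, all 14 libraries, 9 residual degrees of freedom). Alternatives were 3 other scalings, no filter, DESeq2 1.42.0, limma-voom (limma 3.58.1), only the groups compared, a replicate block and each library left out. The fit was tested on simulated data. Promoter sequences are from RefSeq (GRCm38.p6). The members and lists were chosen with earlier results of these data known. Named genes were the members, Kit, Itgam, Cd34 and Idh1 as checks, up to 3 genes per list, direction and comparison that passed with the greatest log2 fold change, and the 3 nearest profiles per member. Rela was named after its values were seen, as the subunit outside the members.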

Additional observations from a re-analysis of the deposited data

Results flagged for a closer look

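The Tnf level in relapse replicate 3, at 21.5 CPM, lay far from the other 3 relapse libraries, at 3.97 to 4.28 CPM, with a gap to its nearest neighbour of 0.982 of the group's range. Dixon's 95% critical value, which this gap exceeds, is itself passed by chance in about 1 of 20 groups, and 10 members were examined. In the same library Icam1 was the lowest of the 4 at 3.71 CPM and Ltb was at 61.4 CPM. Its erythroid markers summed to 80.8 CPM, against 22.3 to 30.4 CPM in the other 3, its T and NK cell markers to 2.06 CPM, against 0.240 to 0.567 CPM, and its monocyte and macrophage markers to 23.7 CPM, against 25.3 to 47.8 CPM. Their part in the Tnf level was not tested. Tnf was also uneven in vehicle day 5, at 7.26, 3.32 and 3.30 CPM.

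The effect of AG120 on Nfkbia differed between the times by −3.20 log2 units (day 14 minus day 5, adjusted p = 0.0343 by edgeR's quasi-likelihood test). Both day 14 AG120 libraries, at 22.1 and 23.4 CPM, lay below the lowest AG120 day 5 library, at 94.4 CPM, and the vehicle levels were 251 CPM at day 14 and 146 CPM at day 5 on average.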

How the results depend on the processing

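Of 1038 alternative values for the members, 990 kept their side of the threshold. Another 29 kept the direction and lost the call, and 19 kept it and gained a call. Among values with a call in either fit, 0 reversed. Some values without a call in either fit changed sign. Among them were 4 of 13 for Ltb in AG120 day 14 minus AG120 day 5, and 4 of 17 for Nfkb2 in relapse against vehicle. In the day 14 effect minus the day 5 effect, the 1 member called became 2 with no filter on low counts (Nfkb1 and Relb), 3 with DESeq2, 0 with limma-voom, 3 with only the groups compared, and 0 without any 1 library of the comparison; the cause was not tested. The same comparison called 112 of all tested genes, against 374 with no filter, 187 with DESeq2, 30 with limma-voom, 869 with only the groups compared and 13 to 61 with 1 library left out. For AG120 day 14 minus AG120 day 5, the 2 members called became 4 with only the groups compared and 0 to 2 with 1 library left out. For vehicle day 14 minus vehicle day 5, 0 became 2 with only the groups compared. Over all genes, the calls in these fits also grew. They went from 492 to 1448 for AG120 day 14 minus AG120 day 5 and from 0 to 236 for vehicle. With 1 library left out, 5 to 6 members were called at day 5, 8 to 9 at day 14, and 9 to 10 at relapse against AG120. Over the other alternatives the counts were 4 to 7 at day 5, 8 to 10 at day 14, and 9 to 10 at relapse against AG120. The calls over all genes moved in these other alternatives too. They were 4471 to 6186 at day 5 (main fit 4730) and 3638 to 4888 at day 14 (main fit 4159). At relapse against AG120 they were 5614 to 6528 (main fit 6481). At day 5 with 1 library left out, 3716 to 3873 genes were called.

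The main fit did not use replicate numbers as pairs. In deviations from the group means, same-numbered AG120 and vehicle libraries correlated at 0.107, 0.0491 and 0.0171 at day 5 and at 0.0685 at day 14. AG120 day 5 replicates 1 and 3 correlated best with the same-numbered vehicle library, and replicate 2 with vehicle replicate 3, at 0.077. With 2 or 3 libraries per group, these values cannot decide whether the numbers pair the samples. With a replicate block, 2 members (Relb and Nfkbia) were called in the day 14 effect minus the day 5 effect. Under the block Relb also passed as lower at day 5 (adjusted p = 0.0402), and Nfkb2 no longer passed at relapse against AG120 (0.51 log2 units, adjusted p = 0.126). Scaling by non-ribosomal totals without TMM moved the median of all genes at day 14 by −0.10 log2 units, and no member changed direction under any scaling. Depth limits Tnf, Icam1 and Tnfaip3 most, with 0 to 4 counts per AG120 day 14 library. Where 1 library was left out of a group of 2, the remaining one was assumed to vary like the other groups.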
